A study of Rattus norvegicus with 24 samples.

Results

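Atp1b1, Fxyd2 and Fxyd4 encode a subunit of the sodium pump and 2 of its small regulators, and were followed across every comparison of a rat kidney array study of salt-sensitive hypertension. They were chosen by the gene symbol of the array's annotation, which lists 6 probe IDs for these genes. Of these, 3 held values, 1 per gene, among 1561 probes with values in the series. Relative RNA abundance was read from 24 cDNA arrays, with 2 RNAs in different dyes on each. The arrays compared a high-salt diet (HS) with a low-salt diet (LS) in strain 13, HS with LS in strain SS, strain 13 with SS on HS, and strain 13 with SS on LS, all at 2 weeks. There were 3 replicates per comparison, and a replicate was 1 pair of RNAs on a forward array and a dye-swap array.

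SS is the Dahl salt-sensitive rat. Strain 13 is the same rat with chromosome 13 of another strain in place of its own, so both strains share the SS background outside that chromosome. These readings of the names, and of HS and LS as diets, come from what is known of the study and not from the labels, which give no age and leave it unsaid whether replicates were separate animals. Within the SS diet comparison, 5 of 6 arrays carry no strain in the title and were placed there by the 4-way design. The title of the sixth (1 of 6) opens as for strain 13 but names SS for both dyes. Titles of all 12 strain arrays also open as a diet comparison (LS vs HS). Their later text names strain 13 and SS RNAs on 1 diet, and they were placed by that text. The title of the series places the work in the renal medulla and the labels say kidney. The values are ratios, so the level of marker genes could not be used to check the tissue.

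The sodium pump (Na,K-ATPase) sits in the basolateral membrane of tubule cells, where it moves sodium out and potassium in at the cost of ATP and so drives sodium reabsorption along the nephron. It is built from a catalytic alpha subunit and a beta subunit, and small single-span FXYD proteins bind to it and set its affinity for ions. Atp1b1 encodes the beta subunit found in kidney, a glycoprotein that the pump needs for folding and delivery to the membrane. Fxyd2 encodes the gamma subunit, which lowers the pump's affinity for sodium and is abundant in the thick ascending limb and proximal tubule. Fxyd4 encodes CHIF, the corticosteroid hormone-induced factor of the collecting duct, which raises that affinity. In the GRCr8 annotation Atp1b1 lies on chromosome 13, the chromosome exchanged in strain 13, Fxyd2 on chromosome 8 and Fxyd4 on chromosome 4.

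Fxyd4 had the largest strain ratio of these genes, and its upstream sequence is shown because it is the 1 of the 3 with an entry in the RefSeq promoter table. The 250 bases before its start (GRCr8, chr4:152786046-152786295, minus strand) read as follows, 5′ to 3′, with a match to the GC box GGGCGG in capitals.
Fxyd4 upstream: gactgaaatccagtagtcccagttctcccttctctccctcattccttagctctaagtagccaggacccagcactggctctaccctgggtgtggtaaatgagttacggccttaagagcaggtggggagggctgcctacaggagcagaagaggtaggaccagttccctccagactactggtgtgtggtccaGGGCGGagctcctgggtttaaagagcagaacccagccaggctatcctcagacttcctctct
The match lies 61 to 56 bases before the start. Matches were sought on both strands, and 30.5% of the 33469 windows of this length hold a GC box. AGAACA, a half-site of steroid receptor elements, had 0 matches here and is in 17.5% of windows. TATAAA also had 0 matches and is in 12.9%. These are letters in a window and not measured sites.

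All values below are the deposited log ratios, whose base is not given in the sources used here, so no fold is stated. A positive value means higher on HS or in strain 13. That direction is likely and not certain. In all 13 titles that name the RNA of each dye, the RNA read as channel 1 is strain 13 or HS. The titles name dyes, which are exchanged on dye-swap arrays, and do not number the channels. They also include just 1 of the 12 diet arrays, and every sign would turn together if the ratio ran the other way. Replicate values are means of the 2 arrays, given as mean ± SD with n = 3. Arrays held between 726 and 1402 values, and the 726 belonged to 1 LS array of the strain comparison, the forward array of replicate 1. Values without it are given for that comparison.

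**Figure D1:**
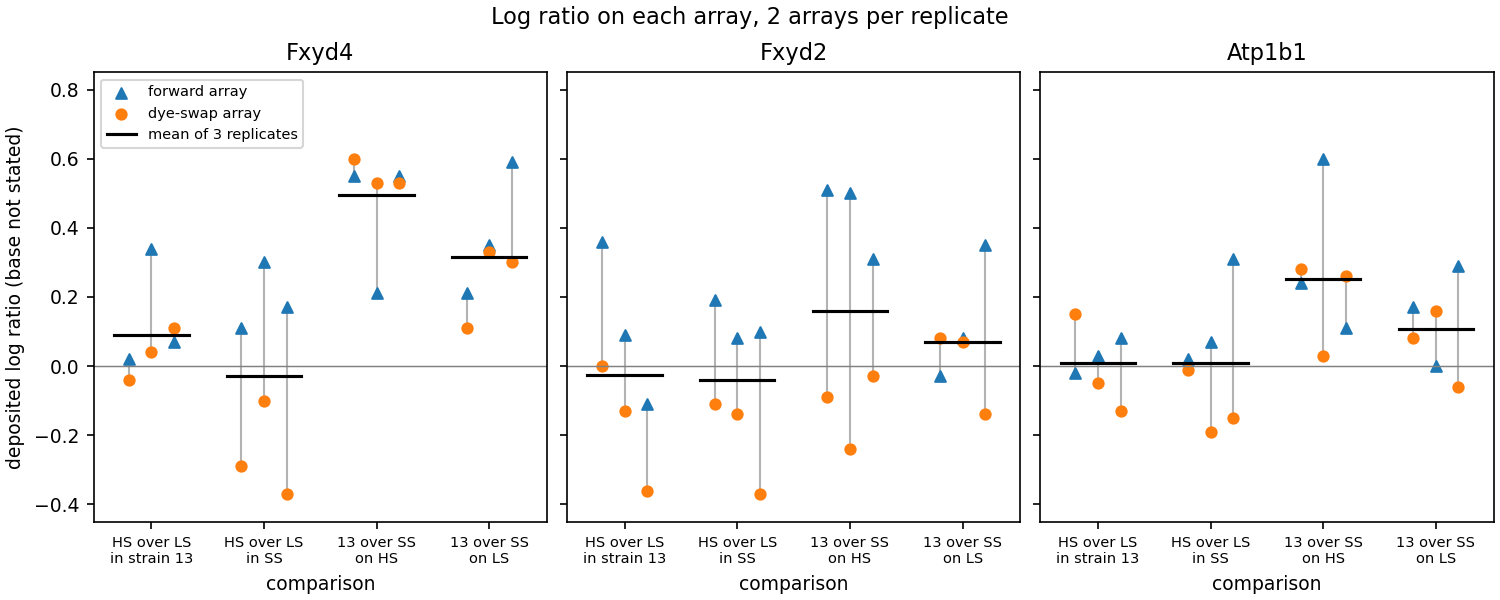
Each panel plots 1 gene, with the deposited log ratio (base not stated) on the vertical axis and the 4 comparisons on the horizontal axis. Triangles are forward arrays, circles dye-swap arrays, grey lines join the arrays of 1 replicate and black bars are means of 3 replicates; all 12 strain arrays of Fxyd4 lie above 0, and most Fxyd2 triangles lie above their circles.

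The comparison of strains on HS asks which transcripts differ between strain 13 and SS when both receive salt. Fxyd4 and Atp1b1 were higher in strain 13, while Fxyd2 did not pass the test. For Fxyd4 the forward and dye-swap arrays read 0.55 and 0.60 in replicate 1, 0.21 and 0.53 in replicate 2, and 0.55 and 0.53 in replicate 3. All 6 arrays lay above 0, and 5 of them between 0.53 and 0.60. The replicate means of 0.575, 0.37 and 0.54 gave 0.495 ± 0.110 (limma adjusted p = 0.00944), and the gene ranked 5 of 1350 probes by p-value.

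For Atp1b1 on HS the forward and dye-swap arrays read 0.24 and 0.28 in replicate 1, 0.60 and 0.03 in replicate 2, and 0.11 and 0.26 in replicate 3. All 6 arrays were again above 0, although the arrays of replicate 2 lay far apart. The replicate means of 0.26, 0.315 and 0.185 gave 0.25 ± 0.07 (limma adjusted p = 0.0307). Among probes measured on all 6 of these arrays, 6.62% had every array above 0.

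Fxyd2 on HS read 0.51 and -0.09 in replicate 1, 0.50 and -0.24 in replicate 2, and 0.31 and -0.03 in replicate 3, forward then dye swap. Every forward array was above 0 and every dye-swap array below it. The replicate means of 0.21, 0.13 and 0.14 were close together, at 0.16 ± 0.04, with a limma adjusted p = 0.232. Thus 2 of the 3 genes passed as higher on HS, against 6.0% of all 1350 probes tested (3.63% as higher and 2.37% as lower).

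The call for Fxyd4 was lost when replicate 1 (0.455, limma adjusted p = 0.094) or replicate 3 (0.47, adjusted p = 0.0506) was left out, and 0 probes in all passed without replicate 1. The call for Atp1b1 was lost whichever replicate was left out (0.22 to 0.29, lowest limma adjusted p = 0.0774) and with the replicate number as a block (0.25, adjusted p = 0.0527).

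The same comparison on LS asks whether the strains differ without the salt load. Fxyd4 was above 0 on every array, at 0.21 and 0.11 in replicate 1, 0.35 and 0.33 in replicate 2, and 0.59 and 0.30 in replicate 3. Its replicate means of 0.16, 0.34 and 0.445 gave 0.315 ± 0.144 (limma adjusted p = 0.0904), which did not pass, at rank 19 of 1229 probes. Without the array that held the fewest values it had 0.30 (adjusted p = 0.102).

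Atp1b1 on LS had replicate means of 0.125, 0.08 and 0.115, or 0.11 ± 0.02 (limma adjusted p = 0.295), with arrays from -0.06 to 0.29. Fxyd2 on LS had 0.025, 0.075 and 0.105, or 0.068 ± 0.040 (limma adjusted p = 0.619), with arrays from -0.14 to 0.35. All replicate means of the 3 genes were above 0, which 26.5% of all probes with 3 replicates showed on LS and 28.3% on HS. On LS 0 of the 3 genes passed, against 0.0% of all probes in limma, where 268 probes had an unadjusted p below 0.05. Without the sparsest array, Atp1b1 had 0.092 and Fxyd2 0.087 on LS.

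With the strain ratio averaged over both diets, a contrast added after seeing the data, Fxyd4 had 0.405 ± 0.151 (SD over its 6 RNA pairs) and ranked 2 of 1203 probes by p-value (limma adjusted p = 0.00371). It lay above 0 on 12 of 12 strain arrays, as did 6 of the 641 probes measured on all of them (0.936%). Its 6 RNA pairs ran between 0.16 and 0.575. Leaving out any 1 replicate number gave 0.36 to 0.43 (highest adjusted p = 0.0325).

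Atp1b1 averaged 0.18 ± 0.09 over both diets (limma adjusted p = 0.0161), above 0 on 10 of 12 arrays. The call was lost whichever replicate number was left out (0.17 to 0.195, lowest adjusted p = 0.0649). Fxyd2 averaged 0.11 ± 0.06 (limma adjusted p = 0.16), above 0 on 7 of 12 arrays. This contrast called 15.0% of all probes (8.73% higher and 6.32% lower in strain 13), so that 2 of 3 is read against a high share.

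**Figure D2:**
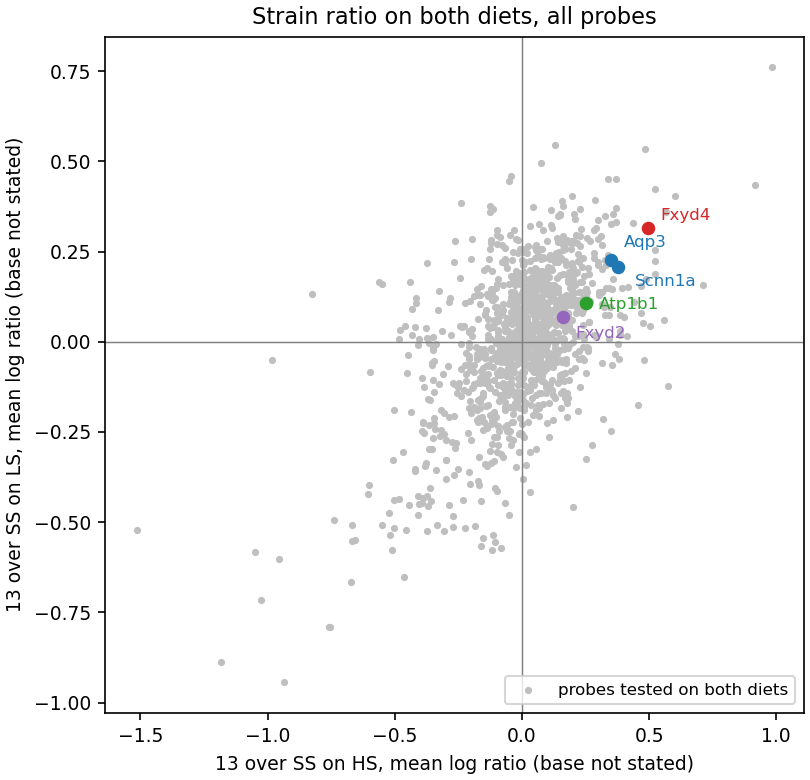
Each grey point is 1 probe tested on both diets, with the mean log ratio of strain 13 over SS on HS on the horizontal axis and on LS on the vertical axis (log base not stated). Fxyd4 lies at 0.495 on HS and 0.315 on LS, near the upper right of the cloud, Atp1b1 at 0.25 and 0.11, and Fxyd2 at 0.16 and 0.068.

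The diet comparisons ask which transcripts change with salt within 1 strain, and none of the 3 genes passed in either. In strain 13, Fxyd4 had replicate means of -0.01, 0.19 and 0.09, or 0.09 ± 0.10 (limma adjusted p = 0.736), with arrays from -0.04 to 0.34. Atp1b1 in strain 13 had 0.065, -0.01 and -0.025, or 0.01 ± 0.05 (limma adjusted p = 0.978), with arrays from -0.13 to 0.15. Fxyd2 in strain 13 had 0.18, -0.02 and -0.235, the widest spread of the 3, or -0.025 ± 0.208 (limma adjusted p = 0.948).

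In SS, Fxyd4 had replicate means of -0.09, 0.10 and -0.10, or -0.03 ± 0.11 (limma adjusted p = 0.865), with arrays from -0.37 to 0.30. All 3 of its forward arrays were above 0 and all 3 dye-swap arrays below, so its mean rests on their cancelling. Atp1b1 in SS had 0.005, -0.06 and 0.08, or 0.0083 ± 0.070 (limma adjusted p = 0.956). Fxyd2 in SS had 0.04, -0.03 and -0.135, or -0.042 ± 0.088 (limma adjusted p = 0.801).

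For each gene the replicates of both diet comparisons lay on both sides of 0. Of all probes 0.0% passed in strain 13 and 2.82% in SS (1.83% higher and 0.992% lower on HS). Without the SS array of conflicting title, Fxyd4 had 0.06, Fxyd2 0.037 and Atp1b1 0.085 in SS, none past the threshold.

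**Figure D3:**
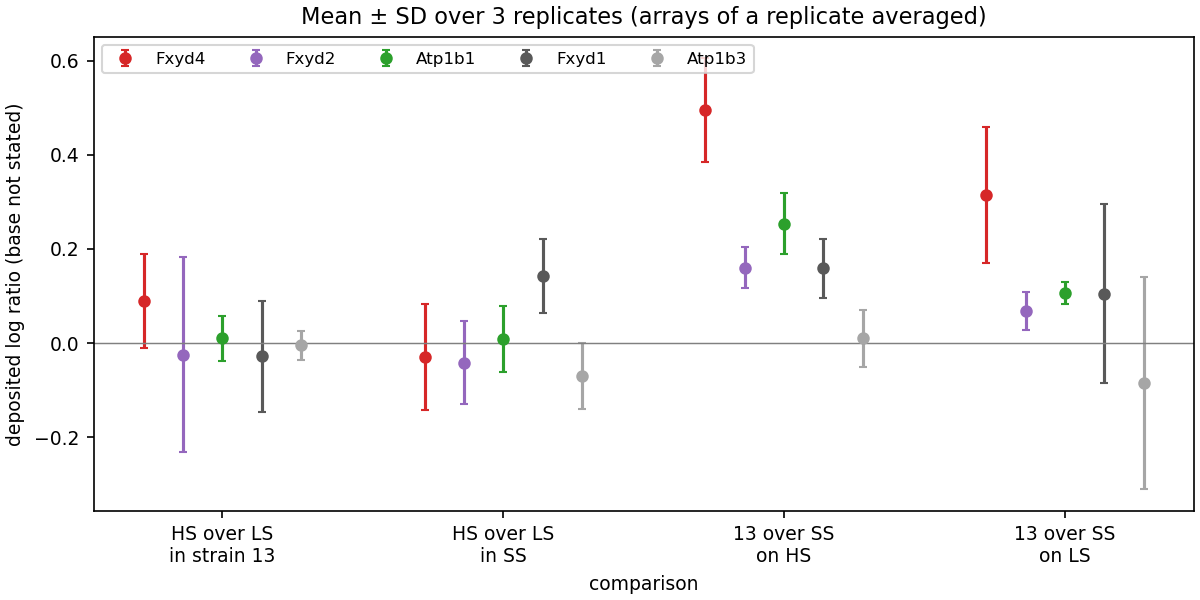
Points are means and bars SD over 3 replicates of the deposited log ratio (base not stated, vertical axis) in the 4 comparisons (horizontal axis), for Fxyd4, Fxyd2, Atp1b1 and their relatives Fxyd1 and Atp1b3. The points of Fxyd4 and Atp1b1 are highest for strain 13 over SS on HS, at 0.495 and 0.25, and the diet points of Fxyd4, Fxyd2 and Atp1b1 lie between -0.042 and 0.09.

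Whether the diet change differed between the strains was tested as the diet change in strain 13 minus that in SS, estimated from the diet arrays and the strain arrays together. It was 0.15 ± 0.08 (SE) for Fxyd4 (limma adjusted p = 0.354), 0.054 ± 0.076 for Fxyd2 (adjusted p = 0.768) and 0.074 ± 0.057 for Atp1b1 (adjusted p = 0.547). None passed, as against 0.43% of 1164 probes. The value of Fxyd4 differed with dye orientation, at 0.0017 on forward arrays alone and 0.30 on dye-swap arrays alone (limma adjusted p = 0.163). That of Atp1b1 was 0.036 without the SS diet array of conflicting title. The higher strain ratio on HS than on LS is thus not shown to be a difference for any of the 3 genes.

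The diet arrays and the strain arrays gave estimates of 0.12 ± 0.06 and 0.18 ± 0.21 for Fxyd4 (SD over 3 replicates). For Atp1b1 they were 0.0017 ± 0.093 and 0.15 ± 0.08, and for Fxyd2 0.017 ± 0.120 and 0.092 ± 0.081. The strain ratio of every replicate was higher on HS than every replicate on LS for Atp1b1 (lowest 0.185 on HS, highest 0.125 on LS) and for Fxyd2 (0.13 and 0.105), while those of Fxyd4 overlapped. Of all probes, 8.98% showed such a gap in this direction. In replicate 3, where the titles of HS and LS strain arrays hold a common text, a possible batch mark, HS minus LS was 0.095 for Fxyd4, 0.035 for Fxyd2 and 0.07 for Atp1b1. In the other replicates this text differs between the diets and cannot be told apart from them. The 1 SS diet array whose title names its RNAs, in replicate 3, gives the names that replicate 3 of the strain arrays uses for SS, so comparisons may share RNAs, while the fit treats them as independent.

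The ratio of Fxyd2 depended on dye orientation. Its forward array read above its dye-swap array in 11 of 12 RNA pairs, by 0.32 ± 0.24 on average (exact sign-flip permutation test over the 12 pairs, two-sided, p = 0.00146). The same difference was 0.14 ± 0.25 for Fxyd4 (9 of 12, exact permutation p = 0.0635) and 0.13 ± 0.25 for Atp1b1 (8 of 12, exact permutation p = 0.105). A difference between orientations as large as that of Fxyd2 was common, found for 24.8% of the 548 probes measured on all arrays. Forward arrays alone gave Fxyd2 a ratio of 0.44 for strain 13 over SS on HS (limma adjusted p = 0.0304), and dye-swap arrays alone -0.12 (adjusted p = 0.38). Fxyd4 had 0.44 on forward and 0.55 on dye-swap arrays in that comparison, past the threshold on both.

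Of 18 genes of the pump and its closest relatives, 5 held values: the 3 above, Fxyd1 (phospholemman, a regulator of the pump best known from heart and muscle) and Atp1b3 (another beta subunit). Alpha subunits were not analysed here. Fxyd1 had 0.16 ± 0.06 for strain 13 over SS on HS (limma adjusted p = 0.251) and 0.11 ± 0.19 on LS. Atp1b3 had 0.01 ± 0.06 on HS (limma adjusted p = 0.966) and -0.085 ± 0.226 on LS. The 5 genes had a median of 0.16 on HS, with 5 above 0 and 2 past the test, where all probes had a median of 0.018 and 54.7% above 0. On LS their median was 0.105, against 0.025 for all probes. With salt it was -0.005 in strain 13 and -0.03 in SS.

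Among 30 genes of the channels and carriers that move ions and water with the pump, 6 were tested on HS, and 2 passed, both as higher in strain 13, where 3.63% of all probes passed as higher. Aqp3, a basolateral water channel of the collecting duct, had 0.39, 0.39 and 0.275 in the replicates, or 0.35 ± 0.07 (limma adjusted p = 0.0122). Scnn1a, the alpha subunit of the epithelial sodium channel that lets sodium in on the apical side, had 0.38 ± 0.05 (adjusted p = 0.0383). Slc12a1, the apical sodium entry of the thick ascending limb, had 0.15 ± 0.05 (adjusted p = 0.283). The 6 genes had a median of 0.12, with 6 above 0 and the lowest at 0.0017, where all probes had a median of 0.018 and 54.7% above 0. On LS 0 of 6 passed, where 0.0% of all probes did, with Aqp3 at 0.23 ± 0.08 and Scnn1a at 0.21 ± 0.27. In the diet comparisons 0 of 6 passed in either strain, against 0.0% of all probes in strain 13 and 2.82% in SS. Aqp2 was not analysed here.

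Of 22 steroid and kinase regulators, 9 were tested on HS and 1 passed, as lower in strain 13, a share near that of all probes called (6.0%, or 2.37% as lower). This was Prkcb, a protein kinase C isoform, at -0.42 ± 0.16 (limma adjusted p = 0.0383). It was also the 1 of 10 to pass in the SS diet comparison (2.82% of all probes), where it had 0.61 ± 0.05 (adjusted p = 0.0105), against 0.11 ± 0.33 in strain 13, a difference that did not pass (interaction -0.48, limma adjusted p = 0.0569). Hsd11b2, which protects the mineralocorticoid receptor from glucocorticoid, had 0.22 ± 0.13 on HS (adjusted p = 0.135) and 0.27 ± 0.16 on LS. In the average over both diets, the contrast added after seeing the data, it passed at 0.25 (adjusted p = 0.018). Hsd11b1, which regenerates glucocorticoid, passed there as lower at -0.24 (adjusted p = 0.0246). Of 8 regulators tested in that contrast 1 passed as higher and 1 as lower, against 8.73% and 6.32% of all probes. Hsd11b1 did not pass on HS (-0.20, limma adjusted p = 0.19) or on LS (-0.27, adjusted p = 0.116). Sgk1, a kinase induced by aldosterone, had -0.0067 ± 0.051 on HS (adjusted p = 0.986). Of the other P-type ATPases, 0 of 4 passed on HS, against 6.0% of all probes.

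Some markers of nephron segments also differed between the strains on HS, and in tissue RNA fewer cells of a type cannot be told apart from less RNA per cell. Of 11 collecting duct markers 4 held values, Fxyd4 among them. All 4 were above 0 in strain 13 over SS on HS and on LS, as were 54.7% and 55.2% of all probes. On HS 3 of the 4 passed, against 3.63% of all probes as higher. They were Fxyd4 itself, Aqp3 and Scnn1a, whose calls are those already given above. The 3 markers besides Fxyd4 were Aqp3, Scnn1a and Hsd11b2, of which Hsd11b2 did not pass. They had a mean of 0.39, 0.32 and 0.24 in the replicates on HS, and of 0.32, 0.26 and 0.13 on LS. Fxyd4 exceeded that mean in each HS replicate but not in replicate 1 on LS. Across the LS replicates that mean fell from replicate 1 to replicate 3, while Fxyd4 rose. With salt the mean of these 3 markers was -0.032 to 0.045 in strain 13 and -0.14 to -0.092 in SS. The mean in strain 13 joined markers of opposite sign, with Aqp3 at 0.15 ± 0.03, Scnn1a at -0.17 ± 0.06 and Hsd11b2 at 0.03 ± 0.14. None of them passed there.

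Of 9 markers of the thick ascending limb and distal tubule, 4 held values, with means of 0.16 to 0.21 in the replicates on HS and -0.053 to 0.10 on LS. With salt the means were -0.030 to -0.0037 in strain 13 and -0.17 to -0.10 in SS. On HS 1 of the 4 passed (Egf at 0.29), against 3.63% of all probes as higher. On LS 0 of 4 passed, against 0.0% of all probes. Of 9 markers of interstitium, smooth muscle and blood 6 held values. On HS 1 of them passed, Lyz2, at -1.51 in strain 13 over SS, where 2.37% of all probes passed as lower. Col1a1, Col3a1 and Tagln had -0.56, -0.43 and -0.42 there without passing. They passed in the SS diet comparison at 0.95, 0.82 and 0.70, where 1.83% of all probes passed as higher. Hbb and Acta2 lay between -0.010 and 0.062 for strain 13 over SS on HS. Of 22 proximal tubule markers 11 held values. The 8 measured in every RNA pair had means of -0.79, -0.13 and -0.44 in the replicates on HS, and of -0.38, -0.14 and -0.47 on LS. With salt they were -0.21, -0.32 and -0.39 in strain 13, and 0.25, -0.31 and -0.30 in SS. On both diets the replicate with the lowest proximal mean had the highest Fxyd4 value (replicate 1 on HS, replicate 3 on LS). The lowest Fxyd4 value was in the replicate with the highest proximal mean on HS (replicate 2). On LS it was in replicate 1, whose proximal mean lay between the others. In the SS diet comparison, the lowest proximal mean and the highest Fxyd4 value were both in replicate 2. In the strain 13 diet comparison they were in replicates 3 and 2. The highest proximal mean and the lowest Fxyd4 value were both in replicate 1 in strain 13, but in replicates 1 and 3 in SS. On HS 2 of 9 tested proximal markers passed, both lower in strain 13 (Gatm at -1.02 and Cyp2e1 at -0.67), against 2.37% of all probes. All 9 were below 0 on HS, as were 606 of all 1350 probes. On LS 0 of 10 passed, where 0.0% of all probes did. All 10 were below 0 on LS, as were 546 of all 1229 probes. The part of segment share in the results for Fxyd4, Atp1b1 and Fxyd2 was not tested.

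**Figure D4:**
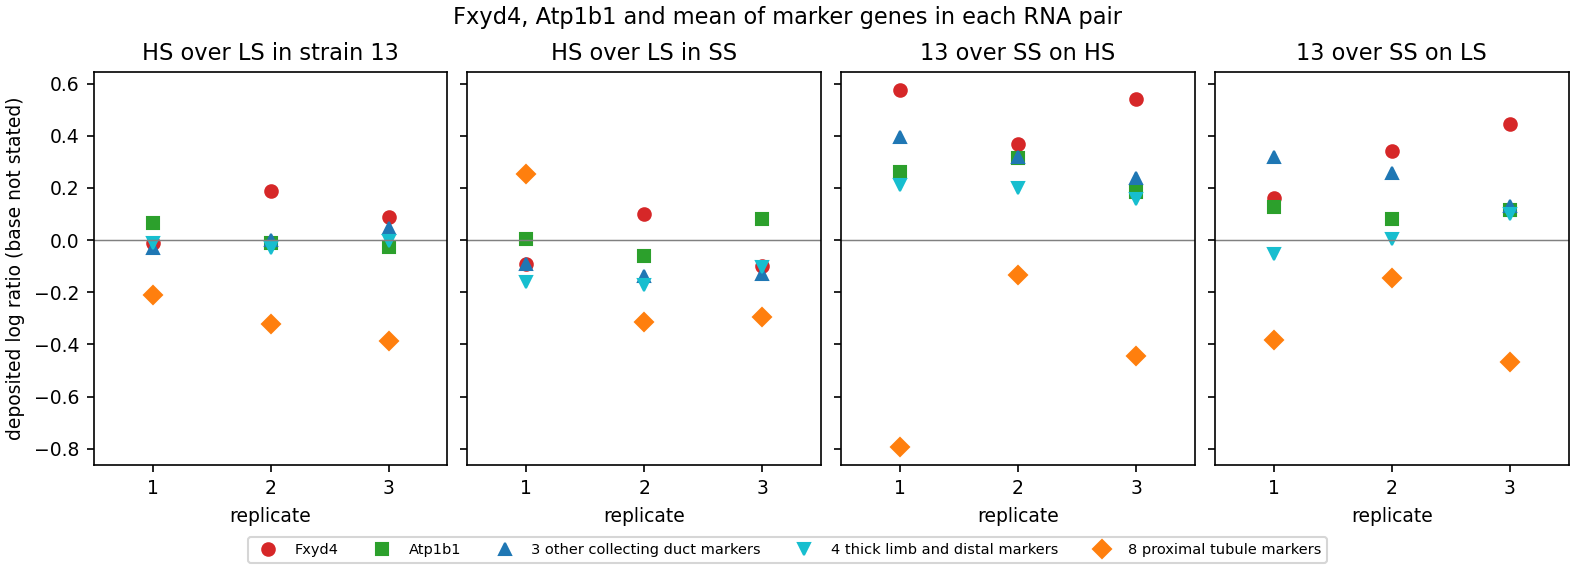
Panels show the 4 comparisons, with replicate number on the horizontal axis and the deposited log ratio (base not stated) on the vertical axis. Symbols are Fxyd4, Atp1b1 and the mean of 3 other collecting duct, 4 thick limb and distal, and 8 proximal tubule markers in each RNA pair; on HS the proximal mean is below 0 in all 3 replicates (-0.79 to -0.13) while Fxyd4 is at 0.37 to 0.575.

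The named probes whose profile over the 12 RNA pairs was nearest to that of Fxyd4, by root mean square difference of the log ratio among 861 probes, were Tor1aip1 (0.13), Aqp3 (0.14), Mcrip1 (0.14), Kdr (0.16) and Actc1 (0.16). Their strain ratios on HS, which the choice itself used, ran from 0.30 for Actc1, an actin of heart muscle, to 0.36 for Tor1aip1, a protein of the nuclear envelope. Kdr, the receptor of VEGF on endothelium, had 0.32 there. Nearest to Atp1b1 were Psmb4 (0.076), Slc25a3 (0.082), Exoc2 (0.086), Ptp4a2 (0.087) and Alas1 (0.087), of which Slc25a3, the mitochondrial phosphate carrier, had 0.24 on HS. Nearest to Fxyd2 were Cox5b (0.073), Bhmt (0.077), Zfp148 (0.079), Timm17a (0.081) and Exoc2 (0.086), and Cox5b, a subunit of cytochrome c oxidase, had 0.20 on HS. Atp1b1 ranked 22 in nearness to Fxyd2, and Fxyd2 ranked 23 in nearness to Atp1b1 (0.11). Fxyd4 lay farther from both, at 0.21 from Atp1b1 and 0.25 from Fxyd2. Fxyd4 minus Fxyd2 was 0.34 ± 0.08 on HS and 0.25 ± 0.10 on LS, and Fxyd4 minus Atp1b1 was 0.24 ± 0.16 on HS and 0.21 ± 0.15 on LS. These profiles share arrays and dyes, and nearness describes them only.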

How the data were processed

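The authors deposited 1 log ratio per probe and array, which was used unchanged. For its log base, background correction, spot filter and normalization, the step is not given in the sources used here. Array means lay within 0.0049 of 0 and medians within 0.04. With no intensities used, precision rests on the number of arrays. Values were present for 1561 of 3502 listed probe IDs. Symbols are those of the platform annotation, brought up to date through gene identifiers in RefSeq's GRCr8 table (1311 probes with 1 symbol, 5 with a platform symbol only, 22 with several, 223 with none). RefSeq also gave chromosomes and the upstream sequence.

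Both orientations were taken as already turned to 1 channel order. Across probes, however, the forward and dye-swap arrays of the same RNA pair agreed little in most pairs. Their r ran from -0.26 to 0.52 in the SS diet comparison and from -0.16 to 0.15 in strain 13. It ran from -0.07 to 0.20 for strain on LS and from -0.22 to 0.23 for strain on HS. The averages of both arrays carry this limit. Over 548 probes on all arrays, the diet ratio difference between strains (13 minus SS) and the strain ratio difference between diets (HS minus LS) correlated with r = 0.766 when the orientations were averaged and 0.215 when they were subtracted. The difference between orientations was alike in all comparisons (median r = 0.724). Over 1164 probes the same closure gave r = 0.579 as deposited and -0.233 to 0.233 with 1 group turned. These correlations are across probes, which are not independent replicates.

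The 2 arrays of a replicate were averaged, giving 12 RNA pairs. limma 3.58.1 in R 4.3.3 (lmFit, eBayes over all probes tested in any comparison) fitted 4 group means, each tested against 0 (two-sided) where at least 2 of 3 replicates had a value. P-values were Benjamini-Hochberg adjusted over all probes of a comparison, with a threshold of 0.05. The interaction averaged 2 estimates, from diet arrays and from strain arrays, within that fit. The fit was tested on simulated data. The p-values reflect the spread between these samples alone, and that spread may be technical. Same-numbered deviations of the 2 diet comparisons correlated at 0.17 to 0.21 in every replicate. Replicates of different number were not compared, so this does not show that they are paired by number. Those of the SS diet comparison and of the strain comparison on HS, which both include SS on HS, correlated at -0.63, -0.56 and -0.29. The fit treats all comparisons as independent, so the SE of the interaction takes no account of this. Over the 18 pairs of same-numbered samples r ran from -0.63 to 0.41. The members, lists and tests were chosen with earlier results of these data known. Named genes are the 3 members, all measured pump relatives, genes of the 4 lists of pump relatives, transport, regulators and other ATPases past the threshold in any comparison, Slc12a1, Scnn1a and Aqp3, and the 5 nearest profiles of each member. Sgk1, Egf, Gatm, Cyp2e1, Lyz2, Col1a1, Col3a1 and Tagln were named after their values were seen. Hbb and Acta2, the other tested markers of interstitium, smooth muscle and blood, were also named outside that rule. Alternatives were other normalizations, filters, tests, array subsets and the replicate number as a block.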

Additional observations from a re-analysis of the deposited data

Results flagged for a closer look

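Among the arrays of strain 13 over SS on HS, 1 array stood apart for Fxyd4: the forward array of replicate 2 read 0.21, while the other 5 lay at 0.53 or above. Among the arrays of strain 13 over SS on LS, the forward array of replicate 1 held 726 values, against 1099 on the next lowest. The SD of its values was also the highest, at 0.474, with 0.318 on the next array. Fxyd4 read 0.21 on that array, and without it had 0.30 on LS. In all 20 sets of 6 arrays were examined for a value far from the rest, of which chance would pick out about 1 in 20.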

How the results depend on the processing

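Over the alternatives, including those leaving out 1 replicate number, 199 values of Fxyd4, Fxyd2 and Atp1b1 kept their direction and side of the threshold, 2 came to exactly 0, 16 turned sign, 16 lost a call and 4 gained one. Most of the 199 had not passed in the main fit and so had no call to lose. For strain on HS, Fxyd4 kept its call in 11 alternatives and lost it in 3, while Atp1b1 kept it in 5 and lost it in 9. Over both diets, Fxyd4 kept its call in all 7, while Atp1b1 kept it in 3 and lost it in 4. Adjusted p-values are from limma except in the ordinary per-probe test. The causes of these changes were not tested.

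Forward arrays alone gave Fxyd4 0.19 in the SS diet comparison and 0.38 for strain 13 over SS on LS (adjusted p = 0.0494). They gave Fxyd2 0.12 in the SS diet comparison, 0.11 in the strain 13 diet comparison, 0.44 for strain on HS and 0.29 over both diets (adjusted p = 0.0202), and Atp1b1 0.32 for strain on HS (adjusted p = 0.07). For the Fxyd4 interaction they gave 0.0017 (adjusted p = 0.993), against 0.30 (adjusted p = 0.163) on dye-swap arrays alone. Dye-swap arrays alone gave Fxyd2 -0.12 for strain on HS, -0.058 over both diets and -0.04 for the interaction. They gave Atp1b1 -0.12 in the SS diet and -0.01 in the strain 13 diet comparison, 0.19 for strain on HS (adjusted p = 0.146) and 0.125 over both diets (adjusted p = 0.176). Without the SS array of conflicting title, Fxyd4 had 0.06 and Fxyd2 0.037 in the SS diet comparison, and Atp1b1 0.25 for strain on HS (adjusted p = 0.0746). With arrays scaled to equal spread, Atp1b1 had -0.000529 in the SS diet comparison and 0.228 for strain on HS (adjusted p = 0.0522). With only probes measured in every RNA pair, Fxyd4 passed on LS (0.315, adjusted p = 0.0474). With each comparison's replicates fitted alone, Fxyd4 had 0.495 (adjusted p = 0.0965) and Atp1b1 0.25 (adjusted p = 0.134) for strain on HS.

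With the replicate number as a block, Atp1b1 had 0.25 for strain on HS (adjusted p = 0.0527) and no other call of the 3 genes changed. The block left 44 probes called for strain on HS, against 81 without it, and 8 for the interaction, against 5. The block fits 1 shared effect per number, and so does not take up the negative correlations between the SS diet and HS strain comparisons.

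Leaving out 1 replicate number gave Fxyd4 -0.095 to 0.005 in the SS diet comparison, 0.04 to 0.14 in the strain 13 diet comparison, 0.25 to 0.39 for strain on LS, 0.455 to 0.56 on HS, 0.10 to 0.195 for the interaction and 0.36 to 0.43 over both diets. Fxyd2 had -0.0825 to 0.005, -0.13 to 0.08, 0.05 to 0.09, 0.135 to 0.175, 0.0 to 0.0975 and 0.11 to 0.12 in the same order. Atp1b1 had -0.0275 to 0.0425, -0.0175 to 0.0275, 0.0975 to 0.12, 0.22 to 0.29, 0.04 to 0.12 and 0.17 to 0.195.

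The count of probes past the threshold moved as follows. In the SS diet comparison (37) it was 118 on forward and 62 on dye-swap arrays, 60 without the array of conflicting title, 58 for complete probes, 0 with own replicates alone, and 0 to 40 without 1 replicate. In the strain 13 diet comparison (0) it was 15 on forward and 3 on dye-swap arrays, and 0 to 0 without 1 replicate. For strain on LS (0) it was 70 on forward and 51 on dye-swap arrays, 23 at equal spread, 35 for complete probes, 26 by the ordinary test and 0 to 1 without 1 replicate. For strain on HS (81) it was 127 on forward and 411 on dye-swap arrays, 13 at equal spread, 50 by the ordinary test, 0 with own replicates alone, and 0, 12 and 11 without replicates 1, 2 and 3. For the interaction (5) it was 13 on forward and 12 on dye-swap arrays, 0 at equal spread, 12 without the array of conflicting title, 2 without the array holding the fewest values, 39 for complete probes, 0 with own replicates alone, and 0 to 4 without 1 replicate. The signal over background is unknown here.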
